A study of Mus musculus with 4 samples.

Results

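The genes examined encode accessory receptors of T cells and number 10: the CD28 family members Cd28, Ctla4, Icos, Pdcd1 and Btla, the tumour necrosis factor (TNF) receptor family members Cd27, Tnfrsf4 and Tnfrsf9, and the adhesion and scavenger-type receptors Cd2 and Cd6. They were chosen by name, with earlier results of these data known, taking each probe set that the platform annotation pairs with a member's symbol and no other. All 10 genes were found, on 15 probe sets, among 18193 genes on 34945 probe sets with 1 symbol. The RNA came from T29, a thymic lymphoma cell line of the mouse, on 4 Affymetrix arrays. Replicates 1 and 2 of the DMSO group received the solvent control. Replicates 1 and 2 of the GSI group received MRK003, an inhibitor of gamma-secretase made by Merck, at a dose the labels write as 5 mM. That unit could not be checked, and the labels give 36 h of treatment for all samples. All groups are the same line, so the data describe 1 tumour, and no label says whether replicates were separate cultures. The p-values therefore measure the spread between these arrays, which may be technical.

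A T cell responds fully only when its antigen receptor and a second, costimulatory receptor are engaged together. CD28 is the classical costimulator and binds CD80 and CD86, while its relative CTLA-4 binds the same ligands and restrains the response. ICOS costimulates through its own ligand, and PD-1 (Pdcd1) and BTLA inhibit by recruiting phosphatases. CD27, OX40 (Tnfrsf4) and 4-1BB (Tnfrsf9) pass signals through TRAF adaptors, and CD2 and CD6 bind adhesion partners on other cells. In the mouse thymus, CD27 and CD28 are known to increase on immature thymocytes that have passed the pre-T cell receptor checkpoint.

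With GSI, the costimulatory receptor genes Cd27 and Cd28 rose more than 2-fold, and no member fell past the threshold. The other 8 members did not pass the test, which was limma's moderated test on log2 values with Benjamini-Hochberg adjustment over all 18193 genes at 0.05. With replicate number added to that model as a block, Cd28 no longer passed and Cd27 did. The 2 of 10 members that rose compare with 2.56% of all genes, the 0 that fell with 1.56%, and both directions together with 4.12%. As earlier results of these data were known when the members were chosen, these shares are no test of the group. Without adjustment, 4 members were higher and 1 lower at 0.05, against 10.8% and 10.7% of all genes. Groups did not overlap in 7 of the 10 members, 4 higher and 3 lower with GSI, against 51.4% of all genes (23.7% higher and 27.7% lower), so separation of 2 arrays from 2 is common in these data. The median log2 difference was 0.090 over the 10 members and -0.012 over all genes. In a bulk sample, a change in the share of cells that express a gene and a change in RNA per cell cannot be told apart.

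**Figure D1:**
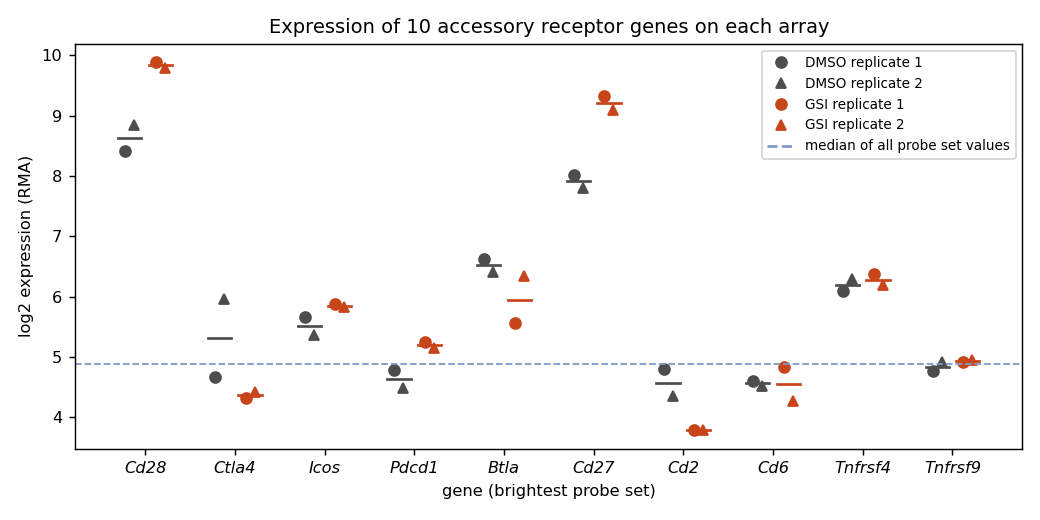
Log2 expression (vertical axis) of each of the 10 receptor genes (horizontal axis, brightest probe set) on the 2 DMSO arrays (grey) and the 2 GSI arrays (orange), with circles for replicate 1, triangles for replicate 2 and short lines for group means; the dashed line at 4.88 is the median of all probe set values. Both GSI arrays lie above both DMSO arrays for Cd28 and Cd27, DMSO replicate 2 stands apart for Ctla4 and GSI replicate 1 for Btla; levels of different genes come from different probes and are not comparable.

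Cd27, encoding a TNF receptor family member of thymocytes and T cells whose ligand is CD70, had log2 values of 8.01 and 7.81 on the DMSO arrays and of 9.33 and 9.10 on the GSI arrays. The groups were clearly apart, and the replicates of each group lay within 0.24 of each other. The log2 difference was 1.31 ± 0.12 (SE, n = 2 per group), a 2.47-fold rise with a 95% interval of 2.00 to 3.05 (limma, adjusted p = 0.00841). It was the gene with the 46th largest rise of all genes by its log2 difference. Cd27 also passed when each probe set was tested on its own (limma, adjusted p = 0.0167). With the replicate block it passed among genes (limma, adjusted p = 0.0311) but not among probe sets (limma, adjusted p = 0.0611).

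Cd28 is measured by 2 probe sets. The brighter gave 8.42 and 8.85 with DMSO and 9.88 and 9.78 with GSI. The second gave 7.42 and 7.82 with DMSO and 8.84 and 8.74 with GSI. On both, the GSI arrays were higher than the DMSO arrays and DMSO replicate 2 was the higher of the controls. The gene's log2 difference was 1.20 ± 0.15 (SE, n = 2 per group), a 2.30-fold rise with a 95% interval of 1.77 to 2.98 (limma, adjusted p = 0.0183). The second probe set rose 2.25-fold, and both passed among the 45037 probe sets tested (limma, adjusted p = 0.0322 and 0.0311). In that test 3 of the 15 member probe sets passed, all higher with GSI, against 0.948% of all probe sets. With the replicate block neither the Cd28 gene (limma, adjusted p = 0.0689) nor its probe sets (limma, adjusted p = 0.112 for both) passed.

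The promoter regions of 6 of the 10 members were in the RefSeq table used here (GRCm38.p6, 250 bases before to 50 after a transcription start), with 7 entries in all. Those of Cd27, the member with the largest rise, and of Btla, which holds a match to the core sequence bound by RBPJ, the DNA-binding partner of cleaved Notch, are printed 5′ to 3′ on the strand of the gene. Capitals mark TGGGAA, the RBPJ core, and CANNTG, the general E-box pattern, searched on both strands. Some forms of that pattern are bound by E proteins of T cell development.
Cd27: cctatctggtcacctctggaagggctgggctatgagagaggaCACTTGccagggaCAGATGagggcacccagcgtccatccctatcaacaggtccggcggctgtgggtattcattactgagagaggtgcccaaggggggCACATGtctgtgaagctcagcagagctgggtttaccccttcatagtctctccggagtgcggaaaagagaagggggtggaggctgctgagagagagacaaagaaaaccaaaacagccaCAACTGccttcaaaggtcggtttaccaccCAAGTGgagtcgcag
Btla: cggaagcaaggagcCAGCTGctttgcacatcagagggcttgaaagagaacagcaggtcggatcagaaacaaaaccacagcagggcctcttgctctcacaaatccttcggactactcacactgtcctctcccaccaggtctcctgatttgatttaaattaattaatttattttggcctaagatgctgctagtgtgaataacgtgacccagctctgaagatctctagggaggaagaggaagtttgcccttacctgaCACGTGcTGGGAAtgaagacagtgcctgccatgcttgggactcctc

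The Cd27 region, chr6:125236978-125237277 on the minus strand, held 5 E-box matches and 0 RBPJ core matches. The Btla region, chr16:45224087-45224386 on the plus strand, held 2 E-box matches and 1 RBPJ core match, which starts 11 bases after the transcription start. The RBPJ core does not overlap the E-box before it, and 1 base lies between them. Of the 7 member regions 2 held the RBPJ core (Btla and 1 of the 2 of Tnfrsf9) and 6 held an E-box, against 25.6% and 72.3% of all 32851 promoter regions of that length in the table. The matches are descriptions of the sequence and do not show binding.

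The other costimulatory receptors did not pass. Icos, encoding the inducible costimulator that lies next to Ctla4 in the gene order of GRCm38.p6, had values of 5.66 and 5.36 with DMSO and 5.87 and 5.82 with GSI. The GSI arrays were the higher pair by a narrow margin, with a log2 difference of 0.33 and a 95% interval of 0.033 to 0.64 (limma, adjusted p = 0.194). Its other probe sets differed by 0.40 and 0.49 in the same direction and did not pass either (limma, adjusted p = 0.456 and 0.261). Without DMSO replicate 2 the difference of the brightest probe set was 0.18.

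Tnfrsf4, encoding OX40, a costimulator induced on activated T cells, was at 6.10 and 6.30 with DMSO and at 6.37 and 6.20 with GSI. Those arrays overlapped, and the 95% interval of the log2 difference ran from -0.19 to 0.36 (limma, adjusted p = 0.728). Tnfrsf9, encoding 4-1BB, another activation-induced costimulator, was at 4.77 and 4.91 with DMSO and at 4.91 and 4.95 with GSI. Its 95% interval, from -0.13 to 0.32, also held 0 (limma, adjusted p = 0.631), and its 2 dimmer probe sets differed by -0.069 and -0.0066. A log2 difference of Tnfrsf4 or Tnfrsf9 as large as that of Cd27 lies outside these intervals. The Tnfrsf9 probe sets lay near or below the median of all probe set values, and their background level was not analysed. The Tnfrsf9 interval therefore concerns the array values only.

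**Figure D2:**
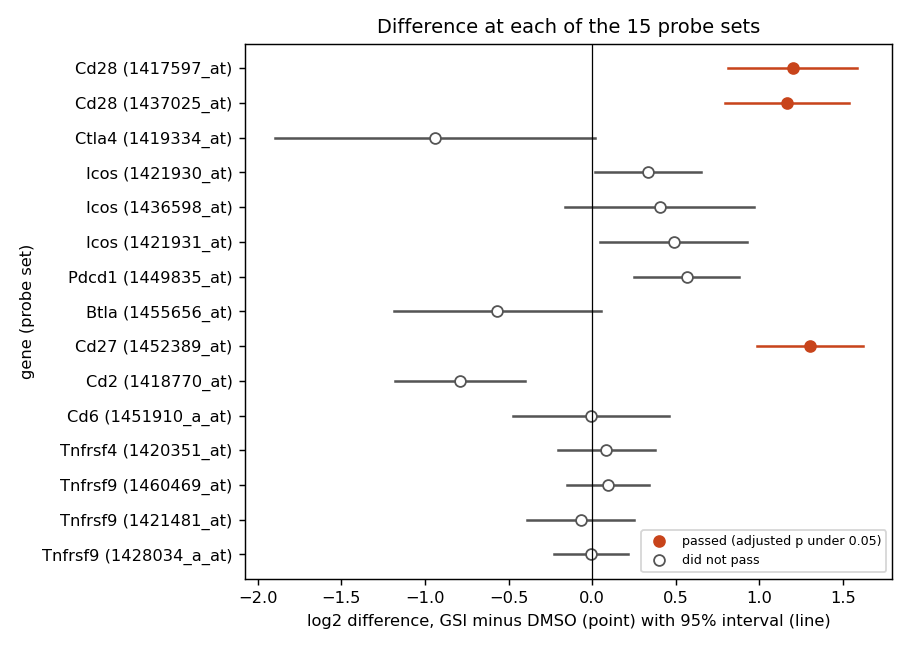
Log2 difference of GSI minus DMSO (horizontal axis, points) with its 95% interval (lines) for each of the 15 probe sets of the 10 genes (vertical axis), from limma fitted to every probe set. The 3 filled points, both probe sets of Cd28 and the 1 of Cd27, passed at an adjusted p under 0.05, and the widest interval is that of Ctla4.

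Among the inhibitory receptors, Ctla4 had the largest difference, and 1 DMSO array set its size. Ctla4, whose product competes with CD28 for CD80 and CD86, was at 4.67 and 5.95 with DMSO and at 4.33 and 4.42 with GSI. Both GSI arrays were below both controls, but the controls lay 1.28 apart. The log2 difference was -0.94 with a 95% interval of -1.89 to 0.0083 and did not pass (limma, adjusted p = 0.236). It was -0.30 without DMSO replicate 2 and -1.58 without DMSO replicate 1. Ctla4 and Cd28 are next to each other in the gene order, with 0 protein-coding genes between them.

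Few genes differed as much between the controls: 23 genes, 0.126% of all, had DMSO arrays at least as far apart as Ctla4, 22 of them higher on replicate 2. Of the 23, 7 belong to a list of 15 genes known to respond to low oxygen, which was drawn up after these values were seen. Bnip3, encoding a mitochondrial protein of that response, was at 7.03 and 10.34 on the DMSO arrays and at 7.84 and 9.09 on the GSI arrays. The mean log2 level of the 15 genes was 7.83 and 9.18 with DMSO and 7.65 and 8.24 with GSI. Of the 15, 14 were higher on DMSO replicate 2 than on replicate 1, the exception being Car9, and all 15 were higher on GSI replicate 2 than on GSI replicate 1. In the comparison of GSI with DMSO 0 of the 15 passed limma, beside 4.12% of all genes. Without adjustment 0 were higher and 2 lower at 0.05, beside 10.8% and 10.7% of all genes. With replicates this far apart few of these genes could pass, so these counts do not show that the groups were alike. All but Car9 (0.061) had a lower mean with GSI, down to a log2 difference of -1.07 for Hk2. The part of the difference between replicates in the Ctla4 values was not tested.

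Pdcd1, encoding the inhibitory receptor PD-1, was at 4.78 and 4.48 with DMSO and at 5.24 and 5.15 with GSI. The GSI arrays were the higher pair, by 0.57 on the log2 scale with a 95% interval of 0.26 to 0.87, and the gene missed the threshold (limma, adjusted p = 0.0654). It passed with dim genes left out, when genes were averaged over probe sets and with an intensity trend (limma, adjusted p = 0.0307, 0.0453 and 0.0343). Dim genes were those whose mean over all arrays was below 4.88. The Pdcd1 group means were 4.63 with DMSO and 5.19 with GSI. Pdcd1 thus cleared the dim filter only through its GSI arrays, and that pass is no support. Pdcd1 has a single probe set, so averaging left its own values unchanged. It did not pass with centred arrays, cyclic loess or the replicate block (limma, adjusted p = 0.0514, 0.056 and 0.104). Nor did it pass when each probe set was tested on its own (limma, adjusted p = 0.112).

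Btla, encoding an inhibitory receptor that binds the TNF receptor family member HVEM, was at 6.63 and 6.41 with DMSO and at 5.57 and 6.33 with GSI. GSI replicate 2 differed from the nearer control by only -0.077, while GSI replicate 1 was far lower. The log2 difference was -0.57 with a 95% interval of -1.18 to 0.042 (limma, adjusted p = 0.262). Without GSI replicate 1 it was -0.19, and without GSI replicate 2 it was -0.95. The GSI arrays lay at least as far apart as this in 0.236% of all genes.

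**Figure D3:**
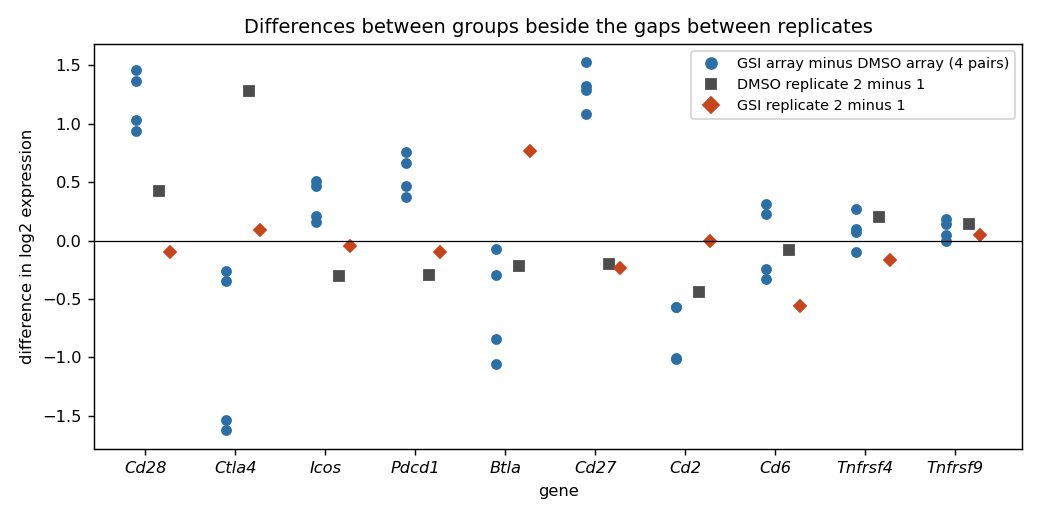
Differences in log2 expression (vertical axis) for each gene (horizontal axis): each GSI array minus each DMSO array (4 blue points), DMSO replicate 2 minus 1 (grey squares) and GSI replicate 2 minus 1 (orange diamonds). The blue points of Cd27 (1.08 to 1.53) and Cd28 (0.94 to 1.46) lie well beyond their replicate gaps, while the DMSO gap of Ctla4 (1.28) and the GSI gap of Btla (0.77) are as large as many of the differences between groups.

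Of the adhesion and scavenger-type receptors, neither passed. Cd2, which in the mouse binds CD48, was at 4.79 and 4.35 with DMSO and at 3.79 and 3.78 with GSI. Both GSI arrays were below both controls, and all 4 values were below the median of all probe set values. The log2 difference was -0.79 with a 95% interval of -1.17 to -0.41 (limma, adjusted p = 0.0520). It passed when genes were averaged over probe sets, with an intensity trend, with centred arrays and with cyclic loess (limma, adjusted p = 0.0163 to 0.0444). Cd2 has a single probe set, so averaging left its own values unchanged. It did not pass with the replicate block (limma, adjusted p = 0.104). Nor did it pass when each probe set was tested on its own (limma, adjusted p = 0.0887). Cd6, whose product binds the adhesion molecule ALCAM, was at 4.60 and 4.52 with DMSO and at 4.83 and 4.27 with GSI. The GSI arrays lay on either side of the controls, and the 95% interval of -0.46 to 0.45 was centred near 0 (limma, adjusted p = 0.993).

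With any 1 array left out no member passed limma, but hardly any other gene did either, so these losses say nothing particular about the receptors. The smallest adjusted p was then 0.0742 for Cd28 and 0.0912 for Cd27, and the log2 difference ranged from 1.19 to 1.42 for Cd27 and from 0.99 to 1.41 for Cd28.

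None of the 11 ligand and counter-receptor genes passed limma, while without adjustment, at 0.05, 3 were higher with GSI and 0 lower, beside the 10.8% and 10.7% of all genes given above. The median log2 difference was 0.063. Icosl, encoding the ligand of ICOS, was at 5.93 and 6.21 with DMSO and at 6.63 and 6.87 with GSI, a log2 difference of 0.68 (limma, adjusted p = 0.0550). Icosl passed with dim genes left out, with an intensity trend, with centred arrays and with cyclic loess (limma, adjusted p = 0.0160 to 0.0430). As the mean of its probe sets the difference was 0.43 and did not pass (limma, adjusted p = 0.114). It did not pass with the replicate block either (limma, adjusted p = 0.0633). Its second probe set differed by 0.18 (limma, adjusted p = 0.655). Pdcd1lg2, encoding the PD-1 ligand PD-L2, was at 4.94 and 4.20 with DMSO and at 5.53 and 5.51 with GSI, a log2 difference of 0.94 (limma, adjusted p = 0.0884). It passed with dim genes left out and with an intensity trend (limma, adjusted p = 0.0463 and 0.0272). Its group means were 4.57 with DMSO and 5.52 with GSI. Pdcd1lg2 thus cleared the dim filter only through its GSI arrays, and that pass is no support. It did not pass with probe set means, centred arrays, cyclic loess or the replicate block (limma, adjusted p = 0.0608 to 0.13). Without DMSO replicate 2 its difference was 0.57, and without DMSO replicate 1 it was 1.32. The CD28 and CTLA-4 ligand genes Cd80 and Cd86 differed by -0.055 and 0.028, and the CD27 ligand gene Cd70 by 0.063.

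Of 18 listed genes of adaptors, kinases and phosphatases that these receptors use, 16 had a probe set of their own. Of the 16, 2 rose and 0 fell, beside 2.56% and 1.56% of all genes. Without adjustment, at 0.05, 6 were higher and 0 lower, beside 10.8% and 10.7% of all genes. The median log2 difference was 0.15. Lcp2, encoding the adaptor SLP-76, which T cell receptor and CD28 signals share, was at 9.19 and 9.20 with DMSO and at 9.85 and 9.73 with GSI. The GSI arrays were the higher pair, and the rise was 1.52-fold (limma, adjusted p = 0.0293). Pstpip1, encoding a cytoskeletal adaptor that binds the CD2 tail, rose 1.47-fold, from 6.98 and 6.87 to 7.53 and 7.42 (limma, adjusted p = 0.0403). Neither gene passed when each probe set was tested on its own (limma, adjusted p = 0.0560 and 0.0750). The other 2 were not analysed here.

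Of 22 other accessory receptor genes of T cells, 20 were measured. Of the 20, 1 rose and 1 fell, beside 2.56% and 1.56% of all genes. Without adjustment, at 0.05, 5 were higher and 2 lower, beside 10.8% and 10.7% of all genes. The median log2 difference was 0.0018. Tnfrsf18, encoding the costimulator GITR and lying beside Tnfrsf4 in the gene order, rose 1.61-fold, from 7.44 and 7.34 with DMSO to 8.12 and 8.04 with GSI (limma, adjusted p = 0.0195). Tnfrsf4 differed by 0.085 on the log2 scale, and the difference between these neighbours was not tested. Slamf6, encoding the SLAM family receptor Ly108 of thymocytes, fell 1.69-fold, from 8.56 and 8.46 to 7.67 and 7.83 (limma, adjusted p = 0.0186). All 3 of its probe sets passed in the probe set test. Tigit and Cd101 were not analysed here.

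**Figure D4:**
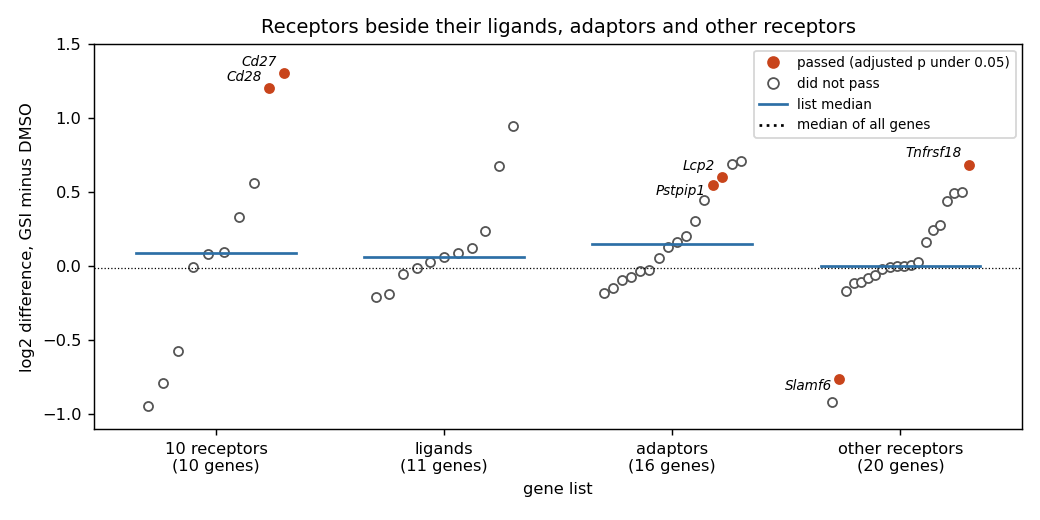
Log2 difference of GSI minus DMSO (vertical axis) for the 10 receptor genes and for 3 lists of related genes (horizontal axis); filled points passed limma at an adjusted p under 0.05, blue lines are list medians and the dotted line is the median of all genes. Cd27 and Cd28 have the largest rises shown, and 0 of the 11 ligand genes passed.

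Over the 4 arrays, the genes whose profile, centred on its own mean, lay nearest to that of Cd27 were Serpini1, Gem and Il21r, the last encoding the interleukin-21 receptor, at Euclidean distances of 0.0746, 0.0929 and 0.101 on the log2 scale. Nearest to Cd28 were Cd8a, encoding a chain of the CD8 coreceptor, Mcoln3 and the vimentin gene Vim, at 0.174, 0.213 and 0.214. Cd8a was at 7.96 and 8.26 with DMSO and at 9.18 and 9.19 with GSI. With 4 arrays such distances mostly restate the difference between groups.

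The Notch target genes Hes1, Dtx1 and Nrarp, a check of the treatment, all fell, with log2 differences of -2.26, -3.53 and -2.42. The label of a thymic lymphoma was checked against T-lineage markers: all 8 measured ones lay above 4.88, with list means of 10.48 and 10.52 with DMSO and 10.85 and 10.79 with GSI. Of these, Cd247, Thy1, Cd8a and Cd4 rose and Cd3g fell, beside 2.56% of all genes that rose and 1.56% that fell. Foxp3, which defines regulatory T cells that carry much CTLA-4 and OX40, was between 3.23 and 3.59 on all arrays, although 3 of 5 markers of that list (Ikzf2, Nrp1 and Gpr83) lay above 4.88 and Nrp1 fell. Above 4.88 were 1 of 4 B cell markers, 3 of 7 myeloid and dendritic, 0 of 4 natural killer and 2 of 5 stromal and epithelial markers. Their list means were 4.11 to 4.18, 4.90 to 4.93, 3.84 to 3.85 and 4.84 to 4.94 with DMSO, and 4.09 to 4.11, 4.98 to 5.15, 3.81 to 3.99 and 4.63 to 4.64 with GSI. Only Pdgfrb of these 20 markers passed limma, beside 4.12% of all genes, and it fell. The myeloid marker Itgam was at 3.45 and 3.08 with DMSO and at 4.59 and 4.04 with GSI, a log2 difference of 1.05 (limma, adjusted p = 0.0561). The part of any of these markers in the receptor values was not tested. Array medians lay between 4.86 and 4.89, and no depth applies to arrays, whose number limits the precision.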

How the data were processed

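RNA of 4 samples was measured on 1-colour Affymetrix arrays. The deposited values were log2 expression per probe set, made with RMA per the submitters' processing notes; the RMA version is not given in the sources used here. No probe-level data were used, so background correction could not be repeated. Of 45101 probe sets, 64 controls were left out. Symbols came from the platform annotation, updated through gene identifiers to GRCm38.p6 (34741 of 34945 matched), used only for names and gene order. The brightest 1-symbol probe set stood for each of the 18193 genes.

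The groups were compared in limma 3.58.1 (R 4.3.3; lmFit, eBayes, group only, two-sided, 5.80 total degrees of freedom). Benjamini-Hochberg adjustment ran over all genes, and separately over all 45037 probe sets. SE is that of the moderated fit. The script was tested on simulated data. The members and lists were chosen with earlier results of these data known. Named were all members, each called gene of the 3 related lists or the 2 with the smallest p, 3 Notch targets, and the 3 genes nearest to each called member; other genes were named after their values were seen. Alternatives were probe set means, dim genes left out, a trend and robust prior, median centring, cyclic loess, the replicate block, fits without 1 array each and a 2-fold minimum.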

Additional observations from a re-analysis of the deposited data

How the results depend on the processing

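Leaving out dim genes, the trend and robust prior and the replicate block cannot change a log2 difference in this design, so they bear only on the p-values. Median centring shifts all genes alike. Probe set means change only members with several probe sets, Cd28, Icos and Tnfrsf9. Under these means and median centring the 10 receptor genes kept their direction. Under cyclic loess Cd6 turned to 0.00095, as did the dimmest probe set of Tnfrsf9 (0.018). With probe set means 4 member genes passed, among 891 genes in all. With dim genes left out, 1584 of 10969 genes and 1553 of 22512 probe sets passed. So did 3 of 7 members, 2 of 5 ligand, 5 of 15 adaptor and 5 of 11 other receptor genes. Of those that passed, Pdcd1 and Pdcd1lg2 cleared the dim filter only through their GSI arrays. Cd2, Cd6 and Ctla4 were then not tested. With the trend and robust prior, 1941 genes, 2372 probe sets, 4 members, 2 ligand, 6 adaptor and 5 other receptor genes passed. Median centring called 3 members, 1 ligand and 4 adaptor genes among 995 genes, and cyclic loess 3 members and 1 ligand gene among 917. With a 2-fold minimum 177 of the 750 genes passed. The cause of these differences was not tested.

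The labels do not say that replicate numbers pair the samples, and over genes the deviations of same-numbered arrays from their group means correlated at 0.0851. A correlation over all genes cannot decide whether they do. Of the 15 low-oxygen genes, 14 were higher on DMSO replicate 2 and 15 on GSI replicate 2. That list was drawn up after these values were seen, and the share of all genes was not analysed. The counts therefore cannot decide the pairing either. With the replicate block, 217 genes and 65 probe sets passed. Cd27 alone of the members passed among genes (1), and 0 member probe sets, 0 adaptor and 0 other receptor genes did. Cd28 had an adjusted p of 0.0689 under it, within 0.00102 to 0.0689 over the alternatives that keep all arrays. With 1 array left out, 0 to 6 genes, 0 probe sets, 0 members and 0 adaptor or other receptor genes passed limma, the remaining array of a group being assumed to vary like the other group. In those fits Cd6 ranged from -0.29 to 0.27, Tnfrsf4 from -0.015 to 0.19 and the second brightest probe set of Tnfrsf9 from -0.19 to 0.047. Groups of 2 are too small for an outlier test. The background level of dim probe sets, such as those of Cd2, Cd6 and Tnfrsf9, was not analysed here.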
